A study of Caenorhabditis elegans with 12 samples.

Results

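The 10 genes described here encode cytoplasmic intermediate filament proteins of the nematode Caenorhabditis elegans and a protein that organizes them. They are 4 genes of the A type (ifa-1, ifa-2, ifa-3 and ifa-4), 2 of the B type (ifb-1 and ifb-2), ifc-2 of the C type, ifd-1 and ifd-2 of the D type, and the organizer ifo-1. They were chosen by gene symbol from the 46748 genes of the count table. Of the symbols, 9 were found as written, and ifa-2 was taken to be the gene that the annotation calls mua-6, a pairing of names known in general and not given by the tables used. All 10 passed the filter on low counts and are among the 17166 genes tested. Whole hermaphrodites of the wild-type strain N2 were sequenced in 12 RNA-seq libraries, 3 in each of 4 groups. Controls were given the solvent dimethyl sulfoxide (DMSO) at 0.1% and were taken at 5 or at 15 days of age. The other worms were exposed to 100 nM rotenone, which blocks mitochondrial complex I, during the 24 h that began at the L4 larval stage, and were taken at the same ages. The labels do not state how long DMSO was given, whether the rotenone worms received it too, from which event age was counted or how offspring were removed. They also do not say whether replicates came from separate cultures, so that p-values measure only the spread between these libraries, which may be technical.

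Intermediate filaments are rope-like polymers that let cells withstand stretch. In C. elegans the A-type proteins assemble only together with IFB-1. In the epidermis these filaments cross the cell within the attachment structures that tie body wall muscle to the cuticle, and in the pharynx they span the marginal cells. Another set, made of IFB-2 with the C-type, D-type and IFP-1 proteins, forms the endotube, a sheath under the microvilli of the intestine that is anchored at the apical junctions. IFO-1 holds that sheath in place.

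At 5 days the DMSO libraries held 43507026 to 53716605 counts and the rotenone libraries 45612486 to 49375222, and at 15 days 34307432 to 48687629 and 41171323 to 52769067. Member counts per library ran from 262 to 8093 in DMSO at 5 days and from 69 to 3086 in DMSO at 15 days, and over all 4 groups the coefficient of variation between replicates lay between 0.672% and 20.9%. Genes that mark intestine (13) and epidermis (14) were all detected in each group, and none was at 0. The libraries come from whole worms, so that fewer cells of a tissue and less RNA per cell cannot be told apart. Levels are counts scaled to library size with TMM factors (CPM). Genes are compared with each other only as CPM per kilobase of gene length. Differences are log2 differences ± a standard error derived from the test, as the absolute difference divided by the square root of its F statistic. A gene was called where edgeR's quasi-likelihood test, with p-values adjusted by Benjamini-Hochberg across the tested genes, gave less than 0.05. The comparisons at 5 and 15 days share libraries with those between ages, so their values are set side by side and not correlated.

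In DMSO worms 9 of the 10 genes fell from 5 to 15 days and 1, ifd-2, rose, where 76.2% of all tested genes were called, 40.9% lower and 35.2% higher. The median log2 difference of the 10 genes was -1.21, beside -0.06 over all tested genes. After rotenone the same count was found, 9 lower and 1 higher, with 79.5% of all genes called, 42.9% lower and 36.6% higher, and the median was -1.27 beside -0.09. In both age comparisons the 2 groups did not overlap in any of the 10 genes, as in 77.0% of all genes in DMSO and 81.3% after rotenone. At 5 days 3 members were higher and 2 lower after rotenone, where 44.7% of all genes were called in either direction (21.3% higher and 23.3% lower), so that the share among the members lies near that of all genes. The groups did not overlap in 6 members, beside 54.3% of all genes. With RLE factors 2 were higher and 2 lower at 5 days, and with library totals 6 were higher and 1 was lower, and the median of all genes then moved from 0.026 to 0.146. At 15 days none of the 10 passed in edgeR, 1 had an unadjusted p under 0.05, and DESeq2 called 0, where 0.408% of all genes were called, 0.280% higher and 0.128% lower.

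**Figure D1:**
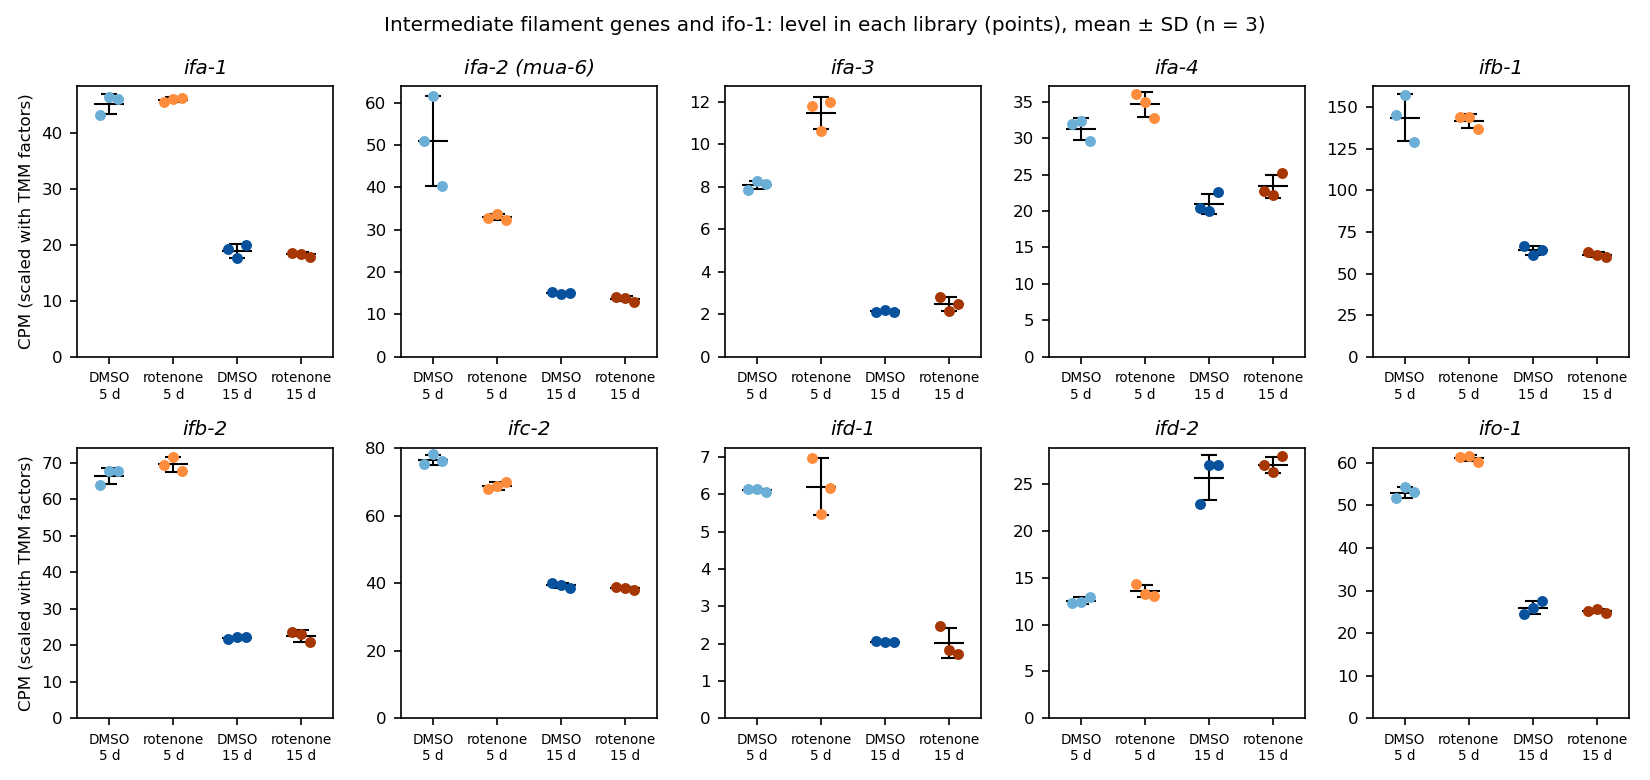
Level of each of the 10 genes in each library (points, in CPM on a linear axis from 0), with the mean and SD of the 3 libraries of a group. Of the 10 panels, 9 step down from 5 to 15 days, and ifd-2 steps up from 12.3 to 14.3 CPM at 5 days to 22.9 to 28 CPM at 15 days.

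Per kilobase ifb-1 was the most abundant of the 10 in every group, at 62.9 ± 6.26 CPM per kb in DMSO and 61.8 ± 1.74 in the rotenone group of 5 days (SD, n = 3). It was followed by ifb-2, at 34.8 ± 1.14 and 36.4 ± 1.06 CPM per kb (SD, n = 3). In DMSO at 5 days the order went on with ifa-2, ifa-1, ifc-2, ifa-4, ifo-1, ifd-2, ifa-3 and ifd-1, the last at 2.92 ± 0.0196 CPM per kb (SD, n = 3). Only the libraries of ifc-2 and ifa-4 overlapped between neighbours in that order. After rotenone at 5 days the overlapping neighbours were ifa-2 and ifa-4, at 17.1 ± 0.332 and 16.9 ± 0.825 CPM per kb (SD, n = 3). At 15 days ifb-1 still led, at 27.9 ± 1.21 CPM per kb in DMSO, and ifd-2 had moved up from the eighth place to the second, at 17.0 ± 1.61 (SD, n = 3). In that group ifc-2, ifa-1 and ifa-2 overlapped with their neighbours at 8.08 ± 0.152, 7.85 ± 0.494 and 7.79 ± 0.165 CPM per kb (SD, n = 3). After rotenone at 15 days the place of ifd-2 was the same, at 17.9 ± 0.586 CPM per kb, and the overlapping neighbours were ifb-2 with ifa-4 and ifa-3 with ifd-1 (SD, n = 3).

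ifb-1 (WBGene00002053, WBcel235 chromosome II, 5765618 to 5772084, plus strand, 2 annotated transcripts) encodes the partner that every A-type protein needs. Its levels were 145, 157 and 129 CPM in DMSO and 144, 144 and 137 CPM after rotenone at 5 days. At 15 days they were 66.6, 61.0 and 64 CPM in DMSO and 62.9, 61.4 and 59.9 CPM after rotenone. The groups of each age overlapped between treatments, while the ages stood far apart. ifb-1 fell by 1.17 ± 0.05 with age in DMSO, which is 2.25-fold (adjusted p = 1.13e-13), and by 1.20 ± 0.05 after rotenone (adjusted p = 6.1e-14). The rotenone difference was -0.03 ± 0.05 at 5 days (adjusted p = 0.706), or 0.10 with library totals, and -0.06 ± 0.06 at 15 days (adjusted p = 0.88).

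ifa-1 (WBGene00002050, chromosome X, 11271182 to 11275498, plus strand, 5 transcripts) is known from the pharynx, among other tissues. It stood at 43.2, 46.4 and 46.0 CPM in DMSO and at 45.5, 46.1 and 46.3 CPM after rotenone at 5 days. The older worms stood at 19.2, 17.6 and 19.9 CPM and at 18.6, 18.4 and 17.9 CPM. The treatments overlapped at both ages. With age it fell by 1.25 ± 0.04 in DMSO and by 1.33 ± 0.04 after rotenone (adjusted p = 2.49e-15 and 8.96e-16). The rotenone difference at 5 days was 0.02 ± 0.04 (adjusted p = 0.679), and 0.14 with library totals, where it passed (adjusted p = 0.00617). All 8 pharynx genes fell with age in DMSO, where 40.9% of all genes were called lower. Their median was -1.22 beside -0.06 over all genes. Their summed level was 429 to 449 CPM at 5 days and 181 to 201 CPM at 15 days. After rotenone at 5 days 6 of these 8 were called higher and 0 lower (with library totals 7 and 0). Their median was 0.30 and their summed level 525 to 541 CPM, while ifa-1 was called in that comparison only with library totals. Among all genes 21.3% were called higher and 23.3% lower in it. The part of pharynx mass in the ifa-1 result was not tested.

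ifa-2 (mua-6, WBGene00003485, chromosome X, 16262289 to 16265686, minus strand, 1 transcript) is an epidermal filament gene named for the muscle attachment defect of its mutants. In DMSO at 5 days it stood at 51, 61.5 and 40.3 CPM, with a coefficient of variation of 20.9%, the largest of any member in any group. After rotenone the 3 libraries were close together, at 32.9, 33.7 and 32.4 CPM. All lay under the lowest DMSO library. ifa-2 fell by 0.63 ± 0.09 after rotenone at 5 days, 1.55-fold (adjusted p = 1.62e-05), and the difference ran from -0.772 to -0.465 with any 1 of the 6 libraries left out. At 15 days the levels were 15.4, 14.8 and 15.1 CPM in DMSO and 14.2, 13.9 and 13 CPM after rotenone. These groups did not overlap either, the only such member at 15 days, where 11.1% of all genes did not overlap, but the difference of -0.14 ± 0.12 did not pass (adjusted p = 0.851). With age ifa-2 fell by 1.76 ± 0.10 in DMSO and by 1.27 ± 0.10 after rotenone (adjusted p = 5.04e-12 and 9.6e-10).

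ifa-3 (WBGene00002051, chromosome X, 16267197 to 16270069, minus strand, 1 transcript) lies 1511 bases from ifa-2 and is needed, with ifb-1, for the elongation of the embryo. It stood at 7.86, 8.27 and 8.11 CPM in DMSO and at 11.8, 10.6 and 12.0 CPM after rotenone at 5 days. The groups did not overlap, and the direction was opposite to that of its neighbour ifa-2. ifa-3 rose by 0.50 ± 0.07, 1.42-fold (adjusted p = 7.06e-06). At 15 days it stood at 2.12, 2.18 and 2.10 CPM in DMSO and at 2.81, 2.16 and 2.48 CPM after rotenone, a difference of 0.24 ± 0.12 that did not pass (adjusted p = 0.699). With age it had the largest fall of the 10 genes in both treatments, -1.93 ± 0.09 in DMSO (3.8-fold lower) and -2.19 ± 0.08 after rotenone (4.58-fold lower) (adjusted p = 3.06e-13 and 7.08e-15). Genes of the apical matrix of late embryos moved in the same directions, but so did genes of other lists. All 6 of that list rose after rotenone at 5 days, with a median of 0.50, and their summed level was 382 to 426 CPM in DMSO and 567 to 582 CPM after rotenone. Of the 6, 5 fell with age in DMSO, to a summed level of 246 to 278 CPM. Of 8 pharynx genes 6 rose after rotenone at 5 days and 0 fell, and 8 fell with age in DMSO. Of 10 genes listed for epidermal attachment 8 rose and 0 fell, and with age 8 fell and 1 rose. The 7 tested genes of early embryos had 3 rises and 0 falls after rotenone, but 4 rises and 2 falls with age. Among all genes 21.3% were called higher and 23.3% lower after rotenone at 5 days. With age in DMSO 35.2% of all genes were called higher and 40.9% lower. The part of embryos in the ifa-3 result was not tested.

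ifa-4 (WBGene00002052, chromosome X, 4912308 to 4915979, minus strand, 1 transcript) had the smallest fall with age among the members. Its levels were 31.9, 32.4 and 29.6 CPM in DMSO and 36.1, 35.0 and 32.8 CPM after rotenone at 5 days, then 20.4, 20 and 22.6 CPM and 22.7, 22.2 and 25.2 CPM at 15 days. The fall was 0.57 ± 0.06 in DMSO and 0.57 ± 0.06 after rotenone (adjusted p = 2.1e-08 and 1.15e-08). The rotenone difference was 0.15 ± 0.05 at 5 days (adjusted p = 0.0324) and 0.15 ± 0.06 at 15 days (adjusted p = 0.568). The call at 5 days was lost with RLE factors (adjusted p = 0.0657), in DESeq2 (adjusted p = 0.103) and without DMSO replicate 3 (adjusted p = 0.147), rotenone replicate 1 (adjusted p = 0.12) or rotenone replicate 2 (adjusted p = 0.0853).

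Because A-type proteins need IFB-1, the summed level of the 4 ifa genes was set against that of ifb-1, per length and within each library. At 5 days the ratio was 1.03 ± 0.0178 in DMSO and 0.953 ± 0.0167 after rotenone, and 0.967 ± 0.0395 and 1.02 ± 0.0349 at 15 days (SD, n = 3). It thus lay between 0.928 and 1.06 in all 12 libraries, while the summed ifa level went from 64.5 ± 6.31 to 27 ± 1.18 CPM per kb between the ages in DMSO (SD, n = 3). No ratio of other genes to ifb-1 was set beside it. Of 13210 genes compared, 2670 had a Pearson correlation with ifb-1 above 0.95 over the 12 libraries (log2 CPM), so a shared fall is not particular to partners. This compares RNA levels only, over all transcripts of a gene.

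The make-up of that sum differed between groups. ifa-2 was the largest part in DMSO at 5 days, with 40.5 ± 4.63%, and 29.0 ± 0.481% after rotenone (SD, n = 3). ifa-4 went from 23.9 ± 1.34% in DMSO at 5 days to 38.1 ± 1.12% in DMSO and 41.8 ± 2.29% in the 15-day rotenone group (SD, n = 3). The share of ifa-1 stayed between 27.8 ± 0.866% and 32.4 ± 0.685%, and that of ifa-3 between 3.98 ± 0.255% and 9.8 ± 0.7% (SD, n = 3). These shares are descriptions without a test.

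**Figure D2:**
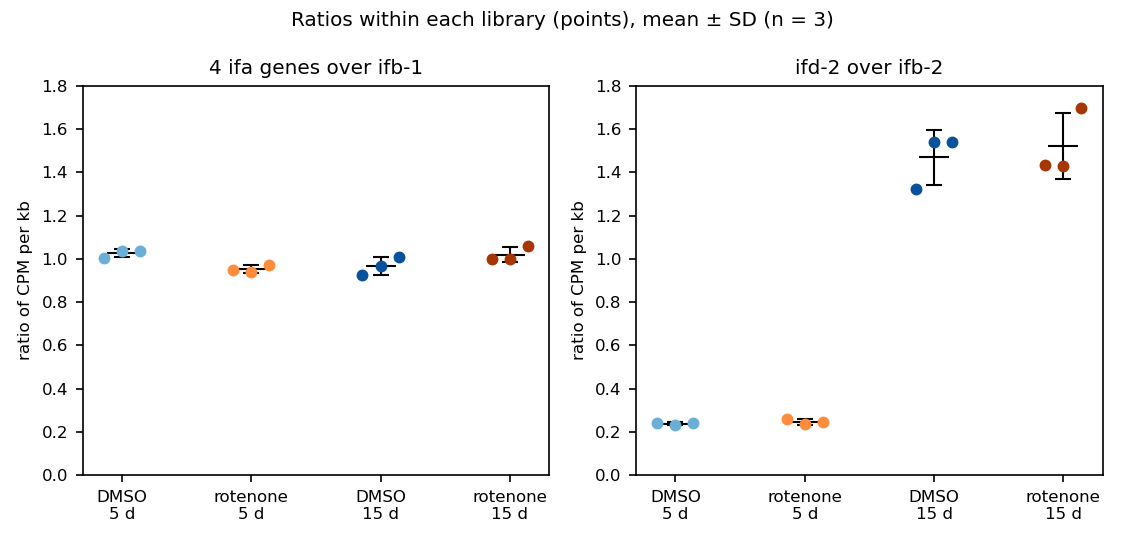
Ratio of CPM per kb within each library (points) with the mean and SD of 3 libraries, for the 4 ifa genes over ifb-1 (left) and for ifd-2 over ifb-2 (right), on linear axes from 0. The left ratio stays between 0.928 and 1.06 in all groups, and the right ratio is 0.231 to 0.259 at 5 days and 1.32 to 1.69 at 15 days.

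Among the intestinal genes, ifb-2 (WBGene00002054, chromosome II, 5750188 to 5754140, plus strand, 3 transcripts) encodes the B-type partner of the endotube. It stood at 63.9, 67.6 and 67.8 CPM in DMSO and at 69.3, 71.6 and 67.6 CPM after rotenone at 5 days. Older worms had 21.8, 22.2 and 22.2 CPM in DMSO and 23.7, 23.2 and 20.8 CPM after rotenone. The treatments overlapped at both ages and the ages did not. With age ifb-2 changed by -1.59 ± 0.05 in DMSO (3.01-fold lower) and by -1.62 ± 0.04 after rotenone (3.07-fold lower) (adjusted p = 7.76e-17 and 4.88e-17). The rotenone difference at 5 days was 0.06 ± 0.04 (adjusted p = 0.21), and 0.18 with library totals, where it passed (adjusted p = 0.00103).

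ifc-2 (WBGene00002056, chromosome X, 642156 to 654904, minus strand, 7 transcripts) encodes a C-type protein of the endotube. Its levels were 75.2, 78.2 and 76.1 CPM in DMSO and 67.8, 68.8 and 70.1 CPM after rotenone at 5 days, without overlap. ifc-2 fell by 0.15 ± 0.03 (adjusted p = 0.000557), but with library totals the difference was -0.03 and did not pass (adjusted p = 0.454). The 15-day levels of ifc-2 were 40.2, 39.5 and 38.7 CPM in DMSO and 38.9, 38.5 and 38 CPM after rotenone, and these groups overlapped. With age it fell by 0.96 ± 0.03 in DMSO and by 0.84 ± 0.03 after rotenone (adjusted p = 1.46e-15 and 8.97e-15). Its gene length of 4880 bases stands for all its transcripts, so that its level per kb depends on which are used.

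The D-type genes went opposite ways. ifd-2 (WBGene00002058, chromosome X, 813854 to 815929, minus strand, 1 transcript) stood at 12.3, 12.4 and 13 CPM in DMSO and at 14.3, 13.3 and 13.1 CPM after rotenone at 5 days. The 15-day levels were 22.9, 27.1 and 27.1 CPM in DMSO and 27, 26.3 and 28 CPM after rotenone. Every library at 15 days lay above every library at 5 days. ifd-2 rose by 1.03 ± 0.06 in DMSO, 2.04-fold, and by 0.997 ± 0.058 after rotenone, 2.0-fold (adjusted p = 6.12e-12 and 5.01e-12). Among all tested genes these differences lay at the percentiles 93.9 and 94.7. The rotenone difference at 5 days was 0.11 ± 0.06 and did not pass (adjusted p = 0.174), although the groups did not overlap, and with library totals it was 0.23 and passed (adjusted p = 0.00552).

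ifd-1 (WBGene00002057, chromosome X, 8820703 to 8824448, minus strand, 1 transcript) was, with the authors' gene lengths, the least abundant member per kb in every group. These lengths were 2092 bases for ifd-1 and 1988 for ifa-3, beside 1927 and 2061 from annotated exons. Which of these genes was lowest per kb in DMSO at 15 days depends on the lengths used. ifd-1 stood at 6.13, 6.13 and 6.06 CPM in DMSO and at 6.98, 5.46 and 6.17 CPM after rotenone at 5 days. At 15 days it stood at 2.07, 2.03 and 2.05 CPM and at 2.48, 1.83 and 1.73 CPM. The DMSO libraries lay within the range of the rotenone libraries at both ages. ifd-1 fell by 1.57 ± 0.12 with age in DMSO and by 1.60 ± 0.12 after rotenone (adjusted p = 3.28e-10 and 1.29e-10). The rotenone difference was 0.03 ± 0.09 at 5 days and -0.001 ± 0.146 at 15 days (adjusted p = 0.856 and 1.0), the latter resting on 69 to 130 counts per library.

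**Figure D3:**
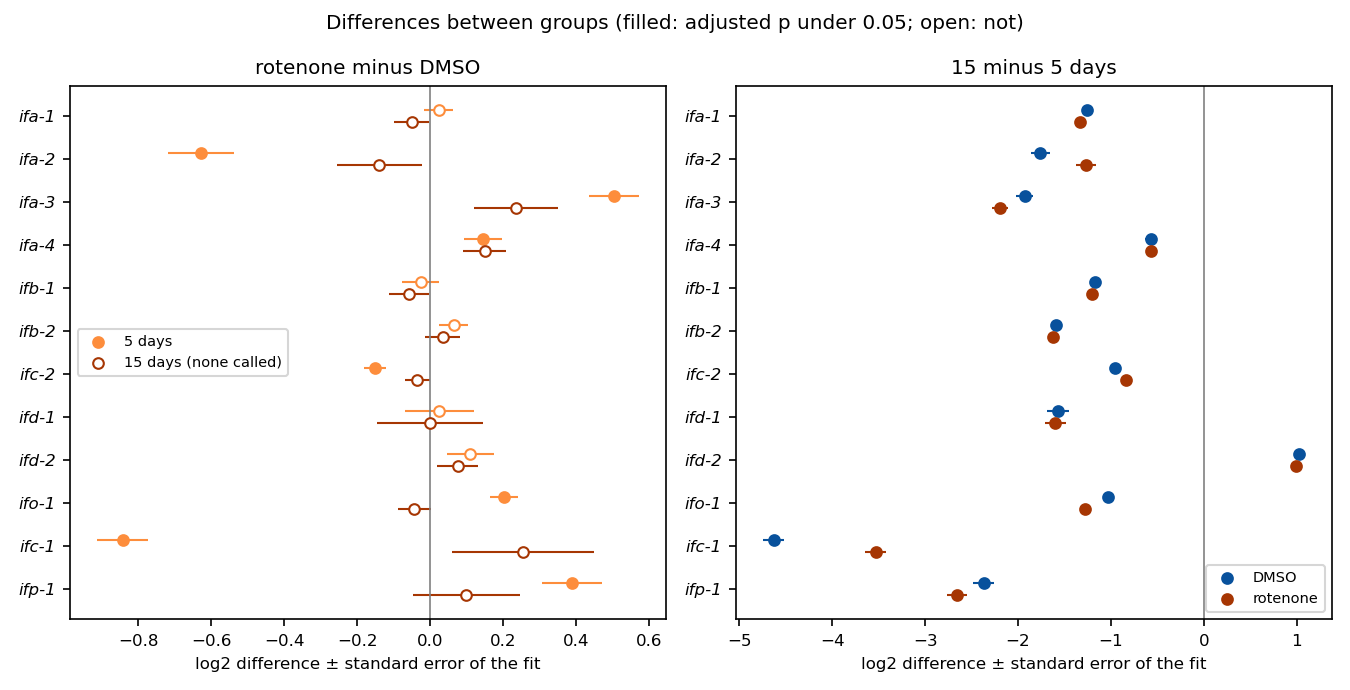
Log2 difference ± standard error (derived from the edgeR F statistic) for the 10 genes and for ifc-1 and ifp-1, between rotenone and DMSO (left, at 5 and 15 days) and between 15 and 5 days (right, in DMSO and after rotenone). Filled points passed an adjusted p under 0.05. On the right, ifd-2 is the only gene above 0, at 1.03 and 0.997, and on the left no gene passed at 15 days.

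The intestinal filament genes ifc-1 and ifp-1 are not among the 10 and complete the set of the endotube. ifc-1 (WBGene00002055, chromosome V, 2881393 to 2883753) had the largest change with age in DMSO among these 10 genes, ifp-1, lmn-1 and itself. It stood at 25.5, 27.5 and 26.9 CPM in DMSO at 5 days and at 1.16, 0.884 and 1.14 CPM at 15 days, a fall by 4.63 ± 0.11 (24.8-fold, adjusted p = 6.91e-18). After rotenone at 5 days it was lower, at 14.4, 14.8 and 15.5 CPM, a fall by 0.84 ± 0.07 (1.79-fold, adjusted p = 1.18e-08). ifp-1 (WBGene00002067, chromosome X, 9675873 to 9680169) rose after rotenone at 5 days by 0.39 ± 0.08, from 17.1 ± 1.43 to 22.4 ± 0.568 CPM (SD, n = 3, adjusted p = 0.000708), and was lower with age in DMSO, at -2.37 ± 0.11 (adjusted p = 2.41e-13). The nuclear filament gene lmn-1, the lamin of the worm, rose with age in DMSO by 0.30 ± 0.03, from 368 ± 6.4 to 454 ± 7.41 CPM (SD, n = 3, adjusted p = 4.95e-09).

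Together the 6 intestinal filament genes at 5 days came to 84.2 ± 2.6 CPM per kb in DMSO and 80.0 ± 0.715 with rotenone, and to 39.5 ± 1.63 and 40.6 ± 1.26 CPM per kb at 15 days (SD, n = 3). At 5 days ifb-2 was the largest part, with 41.4 ± 0.0926% in DMSO and 45.5 ± 1.04% after rotenone (SD, n = 3). ifd-2 held 9.86 ± 0.246% and 11.2 ± 0.436% (SD, n = 3). At 15 days ifd-2 was the largest part, with 42.9 ± 2.39% in DMSO and 44.0 ± 2.38% after rotenone, and ifb-2 held 29.3 ± 0.949% and 29.1 ± 1.3% (SD, n = 3). ifc-1 went from 18.8 ± 0.248% to 1.6 ± 0.271% in DMSO, while ifc-2 went from 18.6 ± 0.395% to 20.5 ± 1.23% (SD, n = 3).

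The 5 other genes together over ifb-2 gave 1.42 ± 0.00541 in DMSO at 5 days and 2.41 ± 0.108 at 15 days (SD, n = 3). Without ifd-2 that ratio was 1.18 ± 0.00745 and 0.947 ± 0.0233 (SD, n = 3). ifd-2 over ifb-2 alone was 0.238 ± 0.00601 at 5 days and 1.46 ± 0.126 at 15 days in DMSO, and 0.246 ± 0.0124 and 1.52 ± 0.151 after rotenone (SD, n = 3). These ratios are descriptions without a test.

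**Figure D4:**
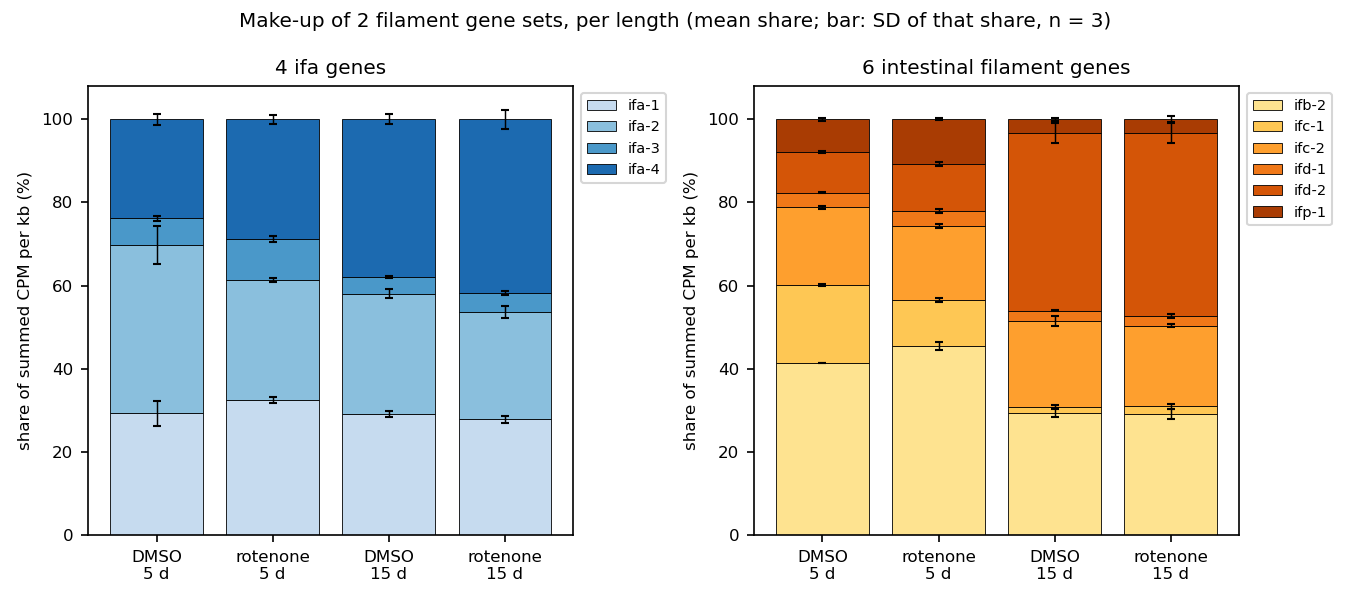
Mean share of each gene in the summed CPM per kb of the 4 ifa genes (left) and of the 6 intestinal filament genes (right) in the 4 groups, stacked to 100%, with the SD of each share over 3 libraries drawn at the top of its segment. On the right, ifd-2 grows from 9.86% in DMSO at 5 days to 42.9% at 15 days, and ifc-1 shrinks from 18.8% to 1.6%.

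Markers of the intestine fell with age as most of its filament genes did. All 13 marker genes fell in DMSO, with a median of -1.27, from a summed level of 6189.1 to 6630.2 CPM at 5 days to 896 to 964 CPM at 15 days, led by the cathepsin gene cpr-1 (-3.50 ± 0.06). Among all genes 40.9% were called lower and 35.2% higher with age in DMSO, with a median of -0.06. The transcription factor gene elt-2 fell by 0.59 ± 0.05. At 5 days 7 of the 13 were lower and 1 was higher after rotenone, with asp-1 at -0.75 ± 0.05 and pgp-1 at 0.61 ± 0.04 (6 and 3 with library totals), and the sum was 4109.5 to 4537.1 CPM. Of the 6 intestinal filament genes in that comparison, ifp-1 was called higher, ifc-1 and ifc-2 were called lower, and ifb-2, ifd-1 and ifd-2 did not pass. Among all genes 21.3% were called higher and 23.3% lower after rotenone at 5 days. The part of intestinal mass in the results of the intestinal filament genes was not tested.

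Of the 14 epidermal markers 5 rose and 7 fell with age in DMSO, beside 35.2% of all genes called higher and 40.9% lower. Their median was -0.20, with summed levels of 518 to 559 CPM at 5 days and 439 to 448 CPM at 15 days. The 4 ifa genes and ifb-1 all fell, with a median of -1.25. The epidermal list held genes on both sides, such as the collagen genes rol-6 (1.75 ± 0.36) and dpy-7 (-2.60 ± 0.13). After rotenone at 5 days 7 epidermal markers rose and 2 fell (with library totals 9 and 1), at 620 to 653 CPM in sum. Among all genes 21.3% were called higher and 23.3% lower in that comparison. The part of epidermal mass was not tested.

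ifo-1 (WBGene00018350, chromosome IV, 7320734 to 7326663, minus strand, 1 transcript) encodes the organizer of the endotube. It stood at 51.6, 54.2 and 53.2 CPM in DMSO and at 61.3, 61.5 and 60.2 CPM after rotenone at 5 days. The groups did not overlap, and ifo-1 rose by 0.20 ± 0.04, 1.15-fold (adjusted p = 0.000231). At 15 days it stood at 24.4, 25.9 and 27.5 CPM in DMSO and at 25.3, 25.6 and 24.8 CPM after rotenone, with overlap and a difference of -0.04 ± 0.04 (adjusted p = 0.889). With age it fell by 1.03 ± 0.04 in DMSO and by 1.28 ± 0.04 after rotenone (adjusted p = 1.62e-14 and 4.92e-16). Relative to ifb-2, ifo-1 stood at 0.377 ± 0.00553 in DMSO at 5 days and at 0.555 ± 0.029 at 15 days, per length (SD, n = 3).

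Whether the rotenone difference itself differed between the ages was tested as an interaction (the difference at 15 days minus that at 5 days). It passed for 2 of the 10 genes, where 25.7% of all genes passed, 15.4% higher and 10.3% lower. ifa-2 was at 0.49 ± 0.15 (adjusted p = 0.0202) and ifo-1 at -0.25 ± 0.06 (adjusted p = 0.00414). ifa-3 (-0.27 ± 0.14, adjusted p = 0.157) and ifc-2 (0.12 ± 0.05, adjusted p = 0.0739) did not pass. With library totals 0 were higher and 3 lower, and with RLE factors 2 were higher and 1 lower. The age difference of ifd-2 was not shown to differ between treatments (-0.03 ± 0.08, adjusted p = 0.819).

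The A-type filaments join the attachment structures of the epidermis. Of 10 genes listed for these structures, 8 rose after rotenone at 5 days and 0 fell (with library totals 9 and 0). Among all genes 21.3% were called higher and 23.3% lower. Not every listed gene encodes a part of the structures, an example being the chaperone gene crt-1, which is among the 8. The list had a median of 0.21 beside 0.026 over all genes. The largest rise was that of vab-19 (0.38 ± 0.05), which encodes an ankyrin repeat protein of the attachments. The spectraplakin gene vab-10 (0.23 ± 0.04) and the myotactin gene let-805 (0.22 ± 0.03) rose too. With age in DMSO 8 of the 10 fell and 1 rose, where 40.9% of all genes were called lower and 35.2% higher. The median was -0.77 beside -0.06 over all genes. The largest fall was that of the perlecan gene unc-52 (-1.49 ± 0.05), and the rise was that of the chaperone gene crt-1 (0.38 ± 0.03). mua-3 and mup-4 encode transmembrane proteins of the apical side of the attachments and were at -1.37 ± 0.05 and -1.397 ± 0.055, both called lower. At 15 days 0 of the 10 passed after rotenone in edgeR, 1 had an unadjusted p under 0.05 and DESeq2 called 0. Among all genes 0.408% passed in edgeR.

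mup-4 was also the gene whose levels over the 12 libraries were most like those of ifb-1, with a Pearson correlation of log2 CPM of 0.998. It stood at 131, 143 and 120 CPM in DMSO at 5 days, in the same order of the 3 libraries as ifb-1 and ifa-2, and at 131, 130 and 125 CPM after rotenone. Next came cth-2, which encodes a cystathionine gamma-lyase, and C39E9.8, both at 0.998. Their DMSO libraries of 5 days had the same order, at 416, 433 and 369 CPM and at 248, 271 and 223 CPM. Those of ifa-4 had it too. For ifb-2 the most alike genes were nlp-49, pgal-1 and mxt-1, each at 0.999. These correlations run over libraries of both ages, and none was computed within an age. Of 13210 genes compared, 2670 exceeded 0.95 with ifb-1 and 2865 with ifb-2. Among the members themselves, ifd-2 was negatively correlated with each of the others, at -0.896 to -0.993 over the same 12 libraries.

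The endotube lies in the apical cortex of the intestine. Of 15 genes of that region, 6 rose and 7 fell with age in DMSO (8 and 6 with RLE factors). Among all genes 35.2% were called higher and 40.9% lower. The median of the list was 0.03 beside -0.06 over all genes. Among the falls, the intestinal actin gene act-5, whose product builds the microvilli, had the largest (-1.12 ± 0.06). sma-5 and bbln-1, known to affect the form of the intestinal filament network, fell by 0.59 ± 0.04 and 0.51 ± 0.04. Among the rises were those of the polarity gene par-6 (0.24 ± 0.03) and of the junction genes dlg-1 (0.14 ± 0.03) and hmr-1 (0.13 ± 0.04), the worm's cadherin. After rotenone at 5 days 6 rose and 4 fell (with library totals 10 and 1), beside 21.3% and 23.3% of all genes. Of the list, dlg-1 was at 0.46 ± 0.03 and act-5 at -0.64 ± 0.06. Many of these genes act in all epithelia, so that their levels in whole worms are not those of the intestine alone.

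Other tissues, listed as markers, moved as follows with age in DMSO, where 40.9% of all tested genes were called lower and 35.2% higher. All 8 body wall muscle genes fell, 7 of 9 neuronal genes fell and 1 rose, 3 of 6 excretory canal genes rose and 3 fell, 3 of 9 germ line and oocyte genes rose and 4 fell, 4 of 6 tested sperm genes rose and 1 fell, and 4 of 7 tested early embryo genes rose and 2 fell. Their part in the members' results was not tested.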

How the data were processed

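The authors deposited a table of raw counts per gene (46748 genes, 12 libraries) and a table of RPKM values. The submitters' processing notes name the build WBcel235, featureCounts 1.4.6-p4, the aligner STAR 2.4.1d, and bcl2fastq 1.8.3. Settings, annotation release and the treatment of multiply mapped reads are not given in the sources used here, so reads shared between similar filament genes remain uncertain. The kit in the labels does not mark strand. Overlaps of members' exons with other genes came to at most 31 bases. In the deposited RPKM table the library totals were repeated down the columns, so that 8.33% of values carry their own total. It served only to recover the authors' gene lengths, which agreed within 0.052% between libraries.

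Ensembl release 115 for WBcel235 gave gene symbols and coordinates. R 4.3.3 with edgeR 4.0.16 fitted all 12 libraries as 4 groups (filterByExpr, minimum count 10, TMM factors, quasi-likelihood F test), after tests on simulated data. The biological coefficient of variation was 3.41%. Log2 CPM used a prior count of 2. Alternatives were RLE factors, library totals, no filter, DESeq2 1.42.0, a fit of only the groups compared, each library left out, and sequencing lane as a replicate block. Per the labels, libraries with equal replicate numbers shared a lane. Deviations of same-lane libraries from their group means correlated at -0.046 to 0.182, those of other pairs at -0.188 to 0.116. All 10 members are named, and from the lists of epidermal attachment and intestinal apical cortex the largest rise and fall among genes past the threshold with at least 1 CPM. The other genes named from these lists, and those named from the marker lists, were chosen after their values were seen. The members and lists were chosen with earlier results of these data known. The largest rise with age in the list of the intestinal apical cortex is not reported here.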

Additional observations from a re-analysis of the deposited data

Results flagged for a closer look

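The rotenone difference of 2 members differed between the ages by the test of that difference. For ifa-2 the difference at 15 days minus that at 5 days was 0.489 on the log2 scale (standard error 0.148, adjusted p = 0.0202), from -0.63 at 5 days to -0.14 at 15 days. It ran from 0.326 (without DMSO replicate 2 of 5 days) to 0.633 (without DMSO replicate 3 of 5 days) with any 1 library left out, and with library totals it was 0.353 and did not pass (adjusted p = 0.0651). The DMSO libraries at 5 days, which enter this value, ran from 40.3 to 61.5 CPM. For ifo-1 it was -0.246 (standard error 0.058, adjusted p = 0.00414), from 0.20 to -0.04, and -0.288 to -0.197 with any 1 library left out.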

How the results depend on the processing

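The calls of the 10 genes between ages, 9 lower and 1 higher in each treatment, were the same in number under every alternative run. After rotenone at 5 days 5 genes were called, 4 to 5 with 1 library left out, 4 with RLE factors or DESeq2 and 7 with library totals. With sequencing lane as a replicate block the counts were 5, 0, 10, 10 and 2 in the 5 comparisons, as without it, and no member's call changed. Of the values recomputed for single genes, 608 kept their direction and their side of the threshold, 29 changed sign, 7 no longer passed and 6 newly passed. Every gene that changed sign was one not called in that comparison. For rotenone at 5 days these were ifa-1 (-0.001 with RLE factors and DESeq2, -0.007 to 0.042 with 1 library left out), ifb-1 (0.095 with library totals, -0.100 to 0.044) and ifd-1 (-0.062 to 0.107). At 15 days they were ifb-2 (-0.005 to 0.086), ifd-1 (0.002 with RLE factors, 0.007 without the filter, -0.202 to 0.095), ifd-2 (-0.001 to 0.121) and ifo-1 (-0.086 to 0.005). In the interaction they were ifa-4 (-0.131 with library totals, -0.051 to 0.064), ifc-2 (-0.019 with library totals), ifb-1 (-0.102 to 0.042), ifb-2 (-0.068 to 0.022), ifd-1 (-0.227 to 0.070) and ifd-2 (-0.110 to 0.011). The cause was not tested. Gene lengths from annotated exons, an alternative chosen after seeing the data, gave ifd-2 a share of 43.0% in DMSO at 15 days, beside 42.9%. The lowest member counts were those of ifd-1 at 15 days, at 69 to 130 per library.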
